A study of Mus musculus with 11 samples.

Results

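Macrophages of the embryonic heart were read here through 38 genes, measured in the whole hearts of 5 Pde2A-/- embryos (KO) and 6 Pde2A+/+ embryos (WT) at E14.5. The genes were chosen by name, with earlier results of these data known. General markers of myeloid cells make up 17 of them, and 4 (Lyve1, Timd4, Folr2 and Cbr2) are used as markers of resident macrophages. The other 17 are scavenger and tissue macrophage genes. Together these are 38 of the 55487 gene identifiers in the files. All 38 passed the filter of 10 counts summed over the 11 hearts, which kept 24177 genes. The embryos came from crosses of heterozygous mice that carry the Pde2A tm1Dgen allele on a mixed C57BL/6 and 129P2 background, were of both sexes, received no drug, and were taken alive. The knockout is present in every cell of the embryo, so it is not limited to macrophages or to the heart. Each heart was 1 library of poly(A) RNA, and the whole organ was used without any sort for cell type.

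The macrophages of the fetal heart come from the yolk sac and the fetal liver and settle in the organ before birth. They take up dying cells and debris, and receptors for bound antibody, lipids and modified proteins are part of their equipment. The growth factor receptor Csf1r keeps them alive, and the transcription factor PU.1, made from Spi1, turns on many of the genes listed here. Some cardiac macrophages renew themselves in place and carry Timd4, Lyve1 and Folr2, whereas others are replenished from blood monocytes that carry Ccr2.

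All 12 cardiomyocyte markers were present and summed to between 36500 and 48470 CPM (counts per 1000000 counts, scaled by TMM) per heart, as the label of the tissue says. The targeted gene Pde2a had at most 2 counts in any heart of either genotype, so the labels could not be checked by it. The annotation places Gm45837 (chromosome 7, 101410886 to 101512819) over nearly all of Pde2a (101421691 to 101512827), also with at most 2 counts. Reads that lie on 2 overlapping genes are counted for neither, so these counts do not show whether Pde2a was expressed. The sense counts of a heart summed to between 35865537 and 42835382, with no difference between KO and WT by an exact two-sided permutation test (p = 0.87). WT replicate 7 stood apart by genes of thymus cells: the recombinase gene Rag1 had 32.6 CPM there and at most 0.183 CPM in the other 10 hearts. The hepatocyte gene Alb had between 11.6 and 46.6 CPM in 4 hearts (KO replicate D and WT replicates 11, H and E) and at most 0.678 CPM in the others. The genes Rag1 and Alb were singled out after their values were seen.

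RefSeq promoters (build GRCm38.p6) were held for 28 of the 38 genes, as 36 starts. The core of the motif bound by PU.1 was searched as AGGAAG or its reverse complement CTTCCT and as GAGGAA or its reverse complement TTCCTC in the 250 bases before each start; the letters overlap where they join as GAGGAAG. On either strand, AGGAAG was found in 29.5% of all 32851 promoters and in 22 of the 36 starts of the macrophage genes. GAGGAA was found in 23.3% of all promoters and in 23 of the 36. The joined form GAGGAAG was found in 10.6% of all promoters and in 12 of the 36, which belong to 11 genes. The shares describe letters in a window and were not tested. The 100 bases before the start are shown for the 6 genes with the joined form nearest to the start and no annotated exon of the same gene in that stretch. Capitals mark GAGGAAG or its reverse complement CTTCCTC, and each sequence is written in the direction of transcription:
Fcgr3 (chr1:171059404-171059503, minus strand): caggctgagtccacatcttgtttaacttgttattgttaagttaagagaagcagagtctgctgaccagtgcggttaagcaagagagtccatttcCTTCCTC
Pf4 (chr5:90772335-90772434, plus strand): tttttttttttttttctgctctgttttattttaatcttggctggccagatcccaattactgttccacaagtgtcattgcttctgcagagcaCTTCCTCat
Trem2 (chr17:48346301-48346400, plus strand): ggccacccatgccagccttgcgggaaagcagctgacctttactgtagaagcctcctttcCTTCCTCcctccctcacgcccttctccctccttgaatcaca
Fcgr1 (chr3:96293970-96294069, minus strand): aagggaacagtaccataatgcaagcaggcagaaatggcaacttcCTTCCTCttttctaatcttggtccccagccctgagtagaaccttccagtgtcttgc
F13a1 (chr13:37050245-37050344, minus strand): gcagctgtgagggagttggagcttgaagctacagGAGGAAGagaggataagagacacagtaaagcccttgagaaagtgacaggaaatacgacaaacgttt
Itgam (chr7:128062540-128062639, plus strand): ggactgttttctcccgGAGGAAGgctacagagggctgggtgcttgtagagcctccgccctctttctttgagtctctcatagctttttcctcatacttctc
The first printed base of the form lay 7 bases before the start in Fcgr3, 9 in Pf4, 41 in Trem2, 56 in Fcgr1, 66 in F13a1 and 84 in Itgam.

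Most of the macrophage genes rose in KO hearts. Of the 38 genes, 27 were higher at an adjusted p under 0.05 and 0 were lower, where 8.93% of all genes tested were higher and 5.67% were lower (quasi-likelihood test of edgeR, p adjusted by Benjamini-Hochberg over all genes). At an unadjusted p under 0.05 the number lower was also 0, as it was with DESeq2, which gave 1 of the genes no adjusted p. The median log2 fold change of the 38 genes was 0.80, and that of all genes tested was -0.02. A fold change of at least 2 beside the adjusted p was reached by 7 of the 38, where 2.21% of all genes reached it. Every KO heart was above every WT heart in 23 of the 38 genes, where this held for 5.38% of all genes, and no gene of the 38 had every KO heart below every WT heart, which held for 3.11% of all genes. In whole hearts, more macrophages and more of a transcript per macrophage cannot be told apart. Without the 4 hearts that hold hepatocyte transcripts (4 KO against 3 WT left), 17 of the 38 were higher, where 2.13% of all genes were, and the median was 0.81. Without WT replicate 7 as well (4 against 2), 10 of the 38 were higher, where 1.61% of all genes were, and the median was 0.89; both selections were made after the data had been seen.

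**Figure D1:**
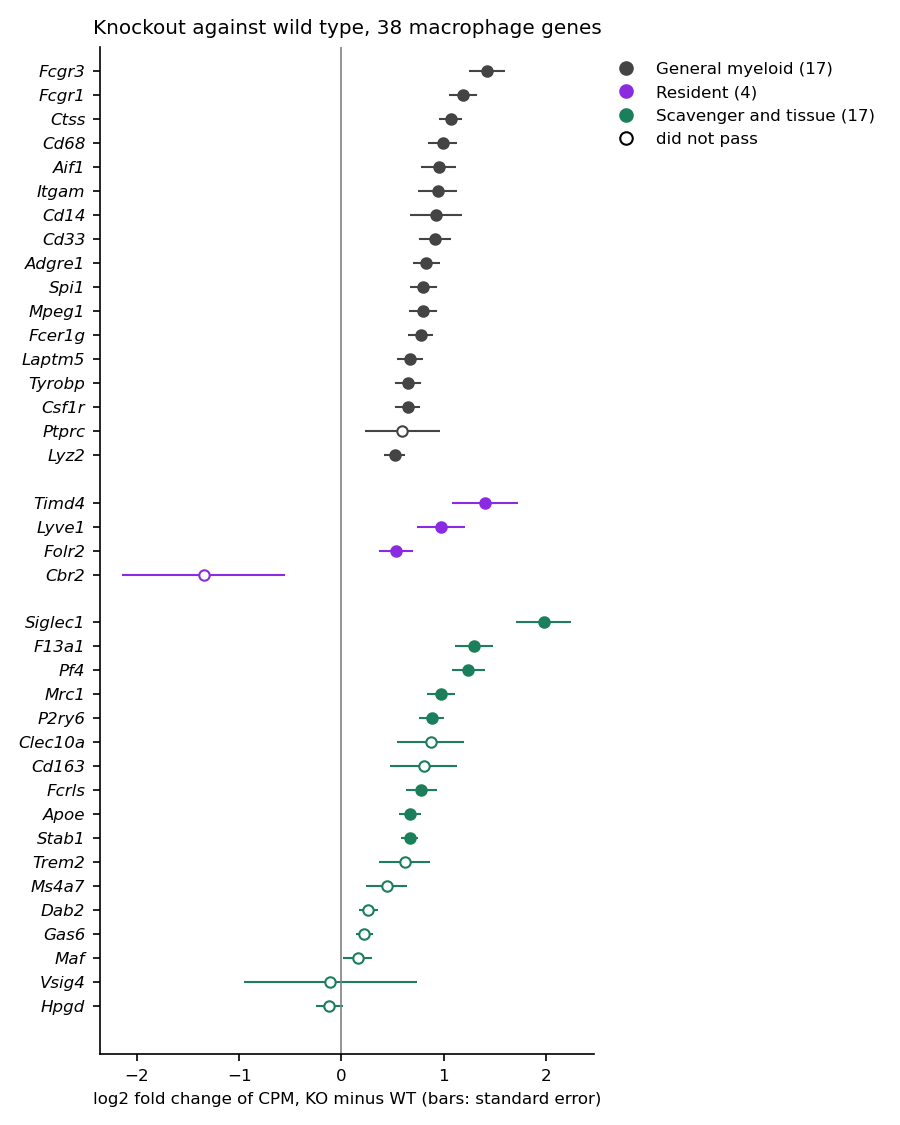
Log2 fold change of each of the 38 genes, KO (5 hearts) minus WT (6 hearts), on the horizontal axis, with 1 gene per line, grouped as general myeloid, resident and scavenger genes. Points are edgeR estimates, bars are standard errors and open points did not pass an adjusted p under 0.05; 35 of the 38 points lie to the right of 0, and the highest is Siglec1 at 1.98.

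Of the 17 general myeloid markers, 16 rose and Ptprc did not pass; the median log2 fold change was 0.83. Adgre1, which encodes the surface protein F4/80 used to recognise mouse macrophages, lies on chromosome 17 from 57358691 to 57483527. In KO replicates A, B, 14, D and 15 it had 15.7, 16.7, 16.3, 20.3 and 19.9 CPM, and in the WT hearts between 7.01 and 12.3 CPM with a median of 10.2. The genotypes did not overlap, and the log2 fold change was 0.83 ± 0.13 (SE, adjusted p = 0.00159). Csf1r, the receptor for colony stimulating factor 1, had 59.6, 60.3, 64.4, 73.1 and 75.3 CPM in the same KO hearts and between 31.5 and 52.8 CPM, with a median of 43.1, in WT hearts. All KO hearts were thus above all WT hearts, with a log2 fold change of 0.65 ± 0.12 (adjusted p = 0.00400). Spi1, the gene of PU.1, on chromosome 2 from 91082390 to 91115756, had 6.08, 6.61, 7.54, 6.77 and 6.56 CPM in KO hearts. Its WT levels lay between 2.99 and 4.89 CPM with a median of 3.96, again without overlap, and the log2 fold change was 0.80 ± 0.13 (adjusted p = 0.00185).

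The receptors that bind the constant part of antibodies changed most among the general markers. Fcgr3, a low affinity receptor for IgG complexes, on chromosome 1 from 171051174 to 171064935, had 9.32, 12.0, 14.9, 16.4 and 17.2 CPM in KO replicates A, B, 14, D and 15, against 3.89 to 6.89 CPM with a median of 5.09 in WT hearts. Its log2 fold change was 1.43 ± 0.18 (adjusted p = 0.000218). Replicate A was the lowest of the KO hearts and still above every WT heart. Fcgr1, the high affinity IgG receptor, had 5.12, 7.36, 7.62, 7.61 and 8.27 CPM in KO hearts and 2.49 to 3.61 CPM, median 3.27, in WT hearts. Here too replicate A was the lowest KO heart, and the log2 fold change was 1.19 ± 0.13 (adjusted p = 0.000102). The promoter stretches of both receptors, printed earlier, were chosen because they hold the joined motif form. That of Trem2, which did not pass, holds it too, and a link between motif and change was not tested. Reads that map equally well to related Fc receptor genes are left out of such gene counts. The adaptor proteins that carry the signal of such receptors into the cell changed less: Fcer1g, the common gamma chain, had a log2 fold change of 0.77 ± 0.13 (adjusted p = 0.00179). Tyrobp, also called DAP12, had 0.65 ± 0.13 (adjusted p = 0.00637), and neither gene overlapped between the genotypes.

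Ctss, a protease that trims proteins in endosomes, had 20.9, 21.8, 26.2, 27.8 and 27.9 CPM in KO replicates A, B, 14, D and 15 and 9.12 to 13.9 CPM, median 12.0, in WT hearts. It was the general marker with the lowest adjusted p, 4.96e-05, at a log2 fold change of 1.07 ± 0.11. Cd68, a glycoprotein of late endosomes, had 5.85, 5.48, 6.27, 8.22 and 7.03 CPM in KO hearts and 2.77 to 4.44 CPM, median 3.17, in WT hearts, and its log2 fold change was 0.99 ± 0.14 (adjusted p = 0.000637). WT replicate E held the highest WT value of Cd68, below all KO hearts. Mpeg1, which encodes the pore former perforin-2, rose by a log2 fold change of 0.80 ± 0.14 and Laptm5, a lysosomal membrane protein, by 0.67 ± 0.13, both without overlap. Lyz2, the lysozyme of macrophages and neutrophils, had the smallest change of the 16, 0.52 ± 0.10 (adjusted p = 0.00618). Its genotypes overlapped: KO replicate 14 had 36.4 CPM and WT replicate 8 had 37.0 CPM, while the other KO hearts had between 44.6 and 54.2 CPM. Lyz1 is a close copy of Lyz2, and reads that fit both are in neither count, so the level of Lyz2 is uncertain.

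Among the remaining general markers, Aif1, the calcium-binding protein Iba1, had a log2 fold change of 0.95 ± 0.17, and Cd33, a sialic acid-binding lectin, had 0.91 ± 0.16, both without overlap. Itgam, the integrin chain CD11b, had 0.94 ± 0.19 at 0.548 to 1.71 CPM over all hearts. The annotation places Gm49368 over 68.7% of the exon bases of Itgam on the same strand, and reads that lie on both genes were counted for neither, so its level is understated. Cd14, the co-receptor for bacterial lipopolysaccharide, had 0.835, 0.944, 1.52, 1.97 and 1.65 CPM in KO hearts and 0.547 to 1.10 CPM, median 0.655, in WT hearts. KO replicates A and B lay within the WT range, the log2 fold change was 0.93 ± 0.25 (adjusted p = 0.0303), and the call was lost when any 1 of KO replicates 14, D and 15 or WT replicates 7, 6, 8 and H was left out (adjusted p between 0.0550 and 0.0917).

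Ptprc, the phosphatase CD45 found on white blood cells, did not pass. It had 8.69, 8.14, 9.93, 9.41 and 10.4 CPM in KO replicates A, B, 14, D and 15. In WT hearts it had between 3.54 and 4.62 CPM except in replicate 7, where it had 16.6 CPM. The log2 fold change was 0.60 ± 0.36 (adjusted p = 0.294), and without WT replicate 7 it was 1.20 (adjusted p = 2.76e-05). Replicate 7 is the WT heart with the thymus transcripts, whose lymphocytes also carry CD45; its sum over the 12 lymphoid genes tested was 118.9 CPM, where the other 10 hearts had 6.93 to 8.21 CPM.

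**Figure D2:**
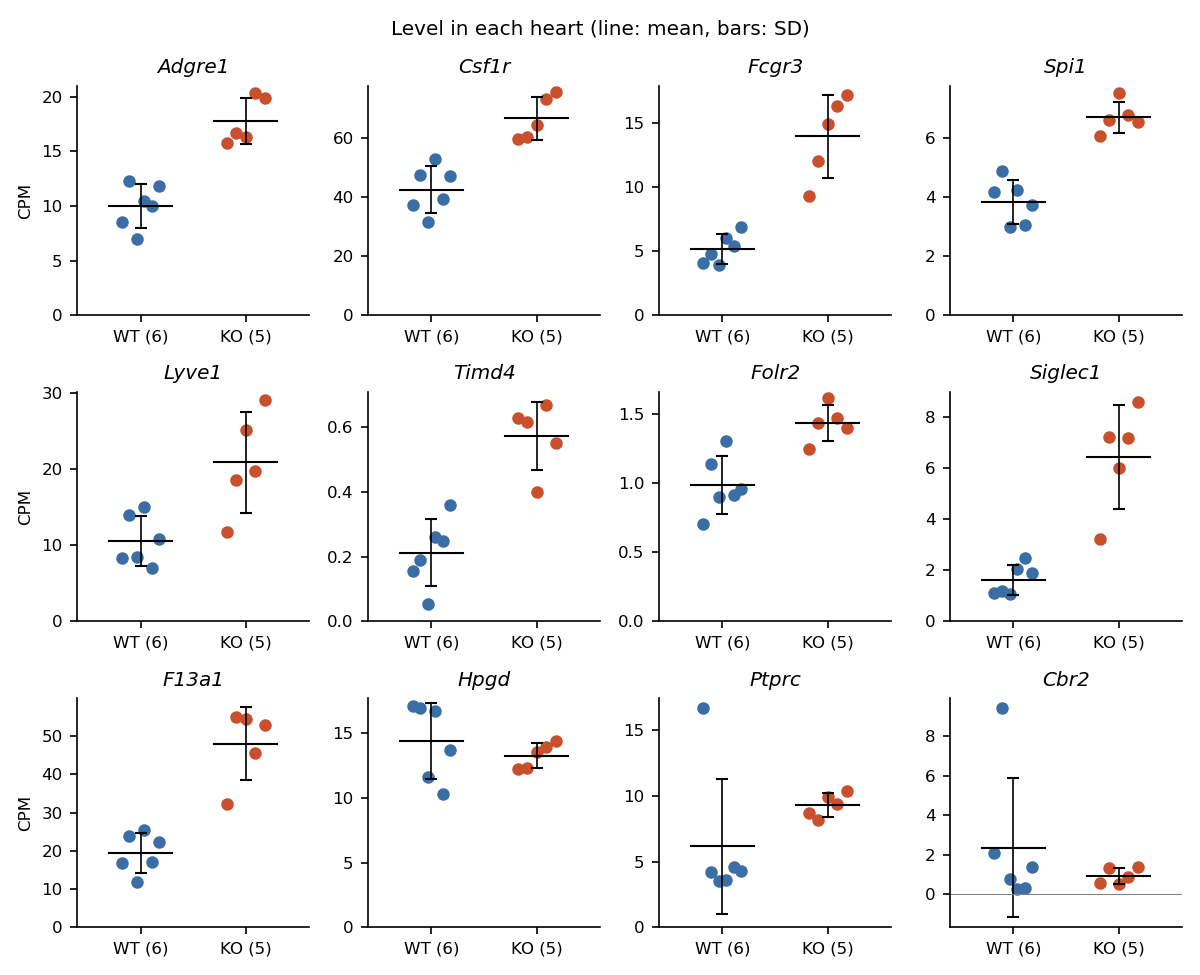
Levels in CPM (vertical axes, each with its own scale) of 12 of the genes in each heart, WT (6 hearts) and KO (5 hearts). Lines are means and bars are SD; WT replicate 7 is the high point of Ptprc at 16.6 CPM, and WT replicate 11 is that of Cbr2 at 9.40 CPM.

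Of the 4 resident markers, 3 rose and Cbr2 did not pass. Lyve1, a receptor for hyaluronan, lies on chromosome 7 from 110850607 to 110863239, 9.34 Mb from Pde2a. It had 11.8, 18.6, 25.2, 19.8 and 29.0 CPM in KO replicates A, B, 14, D and 15, against 6.98 to 15.1 CPM with a median of 9.65 in WT hearts. KO replicate A lay within the WT range and the other 4 above it; the log2 fold change was 0.98 ± 0.23 (adjusted p = 0.0169), and without KO replicate 15 it was 0.83 (adjusted p = 0.0507). Lyve1 is also carried by lymphatic endothelium. Of the 5 genes tested on that list, Flt4, the receptor for VEGF-C, rose by 0.36 ± 0.08 (adjusted p = 0.0101) and 0 fell. Over all genes tested, 8.93% rose and 5.67% fell. The other 4 did not pass, and the summed level was 195.3 to 282.7 CPM in KO and 184.4 to 213.9 CPM in WT hearts. Their part in the change of Lyve1 was not tested.

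Timd4, a receptor for phosphatidylserine on dying cells, on chromosome 11 from 46810800 to 46844332, was among the rarest of these transcripts, with 2 to 26 counts per heart. It had 0.626, 0.614, 0.398, 0.666 and 0.551 CPM in KO replicates A, B, 14, D and 15 and 0.0548 to 0.360 CPM, median 0.219, in WT hearts. The genotypes did not overlap, although the highest WT heart (replicate E) came close to the lowest KO heart (replicate 14). The log2 fold change was 1.40 ± 0.32 (adjusted p = 0.0145). Without the 4 hearts with hepatocyte transcripts it was 1.77 (adjusted p = 0.0832). Timd4 is also known on macrophages of the fetal liver, so liver genes are given beside it. KO replicate D had the highest Timd4 and the highest Alb of the KO hearts. KO replicates A, B, 14 and 15 had 0.626, 0.614, 0.398 and 0.551 CPM of Timd4 and at most 0.165 CPM of Alb. WT replicate E had the highest Timd4 of the WT hearts and the highest Alb of all, 46.6 CPM. WT replicates 11 and H, which also hold hepatocyte transcripts, had 0.190 and 0.249 CPM of Timd4. In WT replicates 7, 6 and 8, which do not, Timd4 was 0.157, 0.0548 and 0.261 CPM. The 4 liver sinusoid genes summed to 21.6 to 37.7 CPM in KO and 8.29 to 13.3 CPM in WT hearts, with all 5 KO hearts above the WT hearts, and the part of liver cells in the change of Timd4 was not tested.

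Folr2, the beta form of the folate receptor, had 1.25, 1.44, 1.62, 1.47 and 1.41 CPM in KO replicates A, B, 14, D and 15 and 0.704 to 1.31 CPM, median 0.940, in WT hearts. KO replicate A overlapped with WT replicate 8. The log2 fold change was 0.54 ± 0.17 at an adjusted p of 0.0459, just under the threshold, and the call was lost when any 1 of KO replicates B, 14, D and 15 or WT replicates 7, 6, H and E was left out (adjusted p between 0.0600 and 0.109). With reads of both strands the adjusted p was 0.320. Folr2 lies on chromosome 7 from 101839988 to 101857194, 0.327 Mb from Pde2a, so it is inherited with the targeted locus. The strain of the chromosome around that locus and the genotype cannot be told apart, which also bears on Lyve1 on the same chromosome.

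Cbr2, a carbonyl reductase, had 0.548, 1.32, 0.498, 0.861 and 1.38 CPM in KO replicates A, B, 14, D and 15 and 0.261 to 9.40 CPM, median 1.06, in WT hearts. WT replicate 11 held the highest value and the next WT heart had 2.06 CPM, so that the KO range lay within the WT range. The log2 fold change was -1.35 ± 0.79 (adjusted p = 0.276), and without WT replicate 11 it was -0.040. Cbr2 is also known from the airway. The airway genes looked up after these values were seen, Nkx2-1 and Scgb3a2, had 5.22 and 15.6 CPM in WT replicate 11 and at most 0.274 and 0.722 CPM in the other hearts; their part in the level of Cbr2 was not tested.

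Of the 17 scavenger and tissue macrophage genes, 8 rose, 0 fell and 9 did not pass; the median log2 fold change was 0.67. Siglec1, also called CD169, is a lectin for sialic acids that macrophages raise in response to interferon. It lies on chromosome 2 from 131069220 to 131086765 and had 3.21, 7.20, 6.00, 7.19 and 8.60 CPM in KO replicates A, B, 14, D and 15, against 1.07 to 2.48 CPM with a median of 1.55 in WT hearts. The genotypes did not overlap, and the log2 fold change of 1.98 ± 0.27 (adjusted p = 0.000525) was the highest of the 38. KO replicate A was the lowest KO heart for Siglec1 and also for the summed level of the 12 interferon response genes, at 105.4 CPM against 189.2 to 278.6 CPM in the other KO hearts and 32.6 to 43.6 CPM in WT hearts. All 12 of those genes rose, led by Isg15, a ubiquitin-like protein, with a log2 fold change of 4.52, and by Ifit1 with 4.30 and Usp18 with 4.20. Their part in the change of Siglec1 was not tested. KO replicate A was also the lowest KO heart for the mean level of each group of the 38 genes and for the erythroid sum. Its rank is thus not particular to Siglec1 and the interferon response genes.

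F13a1 and Pf4 followed. F13a1, the A chain of coagulation factor XIII, had 32.2, 54.9, 54.5, 45.7 and 53.0 CPM in KO replicates A, B, 14, D and 15 and 11.8 to 25.4 CPM, median 19.7, in WT hearts. Its log2 fold change was 1.30 ± 0.19 (adjusted p = 0.000696), without overlap. Pf4, the chemokine Cxcl4, had 7.75, 10.01, 9.80, 9.02 and 11.8 CPM in KO hearts and 2.66 to 5.54 CPM, median 4.06, in WT hearts, with a log2 fold change of 1.24 ± 0.16 (adjusted p = 0.000326). Both genes are also strong in megakaryocytes and platelets. Of the 10 genes tested on that list 4 rose and 0 fell, where 8.93% of all genes tested rose and 5.67% fell. At an unadjusted p under 0.05 7 were higher, and with DESeq2 5 were higher. Ppbp, another platelet chemokine, rose by 1.81 ± 0.25 and Clec1b by 0.65 ± 0.15. The summed level of the list was 53.2 to 76.4 CPM in KO and 38.2 to 52.5 CPM in WT hearts, so that all 5 KO hearts were above the WT hearts, and its part in the changes of F13a1 and Pf4 was not tested.

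Of the receptors for modified or foreign material, Mrc1, the mannose receptor CD206, had 46.8, 55.6, 68.7, 61.5 and 61.6 CPM in KO replicates A, B, 14, D and 15 and 23.3 to 38.6 CPM, median 29.2, in WT hearts. The genotypes did not overlap and the log2 fold change was 0.97 ± 0.14 (adjusted p = 0.000558). Stab1, a scavenger receptor of macrophages and of some endothelium, had 237, 272, 280, 260 and 290 CPM in KO hearts and 147 to 189 CPM, median 170, in WT hearts. Its change was 0.67 ± 0.08 (adjusted p = 0.000170), without overlap. Fcrls, a scavenger receptor related to Fc receptors, rose by 0.78 ± 0.15 and Apoe, the lipid carrier apolipoprotein E, by 0.67 ± 0.11, both without overlap. P2ry6, a receptor for uracil nucleotides that macrophages use in phagocytosis, rose by 0.88 ± 0.12 (adjusted p = 0.000585), from 2.36 to 3.75 CPM in WT to 4.99 to 6.70 CPM in KO hearts. P2ry6 lies 0.447 Mb from Pde2a on chromosome 7, so the limit given for Folr2 holds for it too.

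General endothelial genes are set here beside genes that endothelial cells also carry. Over all genes tested, 8.93% rose and 5.67% fell. Of 9 endothelial and endocardial genes 3 rose and 0 fell: Emcn by 0.50 ± 0.09, Pecam1 by 0.34 ± 0.07 and Egfl7 by 0.22 ± 0.07; at an unadjusted p under 0.05 the number was 6 and with DESeq2 5 were higher. The summed level was 1483 to 1675 CPM in KO and 1216 to 1460 CPM in WT hearts. All 5 KO hearts were above the WT hearts in that sum. The 4 liver sinusoid genes, given with Timd4, summed to 21.6 to 37.7 CPM in KO and 8.29 to 13.3 CPM in WT hearts. The part of either list in the changes of Stab1, Lyve1 and Apoe was not tested.

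The 9 scavenger genes that did not pass fall into abundant and rare ones. Of the abundant ones, Gas6, a ligand of receptors for dying cells, had a log2 fold change of 0.22 ± 0.08 (adjusted p = 0.0893), and Dab2, an adaptor for endocytosis, had 0.26 ± 0.09 (adjusted p = 0.0766). The transcription factor gene Maf had 0.16 ± 0.14, with 36.9 to 49.9 CPM in KO and 29.1 to 52.0 CPM in WT hearts. Hpgd, which breaks down prostaglandins, had -0.12 ± 0.13, and its 5 KO hearts, at 12.3 to 14.4 CPM, lay inside the WT range of 10.3 to 17.1 CPM. With DESeq2, Dab2 passed at an adjusted p of 0.0386.

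The rare ones had wide errors. Trem2, a lipid receptor, had 11 to 43 counts per heart and a log2 fold change of 0.62 ± 0.25, and Ms4a7, a tetraspan membrane protein, had 35 to 82 counts and 0.44 ± 0.20. The hemoglobin scavenger receptor Cd163 had 6 to 26 counts and 0.80 ± 0.33, and Clec10a, a lectin for galactose, had 4 to 17 counts and 0.87 ± 0.33. These last estimates are as large as the median of the 38 genes and had adjusted p of 0.114 and 0.0912. Vsig4, a complement receptor of Kupffer cells, had 0.784 CPM in WT replicate 8 and 0.0249 to 0.305 CPM in the other 10 hearts. Its log2 fold change was -0.11 ± 0.84, and without WT replicate 8 it was 1.58 (adjusted p = 0.108).

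Within WT hearts the 38 genes spanned a wide range of levels. Per kilobase of exon, Apoe had the highest mean level, 133.6 CPM per kb, followed by Gas6 with 101.3, Lyz2 with 24.8 and Stab1 with 16.4. Csf1r had 7.36, Adgre1 3.09 and Spi1 1.43 CPM per kb. The lowest were Cd163 with 0.0495, Clec10a with 0.0611 and Timd4 with 0.0975 CPM per kb. Lyve1 with 3.63 CPM per kb was thus the most abundant resident marker, and Folr2 had 0.640 CPM per kb. The exon length was the union over all transcripts of a gene, which understates genes with many transcript forms such as Ptprc.

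The mean log2 CPM of the general markers was 3.28 ± 0.16 (SD, n = 5) in KO and 2.40 ± 0.19 (SD, n = 6) in WT hearts. KO replicate A was the lowest KO heart at 3.06 and WT replicate E the highest WT heart at 2.62, so the genotypes were apart. For the scavenger genes the means were 3.56 ± 0.18 and 2.85 ± 0.24, and KO replicate A, at 3.28, was just above WT replicate 8, at 3.21. The mean of the 4 resident markers did not separate the hearts: it was 1.01 ± 0.25 in KO and 0.39 ± 0.54 in WT hearts. WT replicate 11, at 1.31, was above all KO hearts, as it was for Cbr2 alone of the 4, at 9.40 CPM. For Timd4 (0.190 CPM) and Folr2 (1.14 CPM) that heart was below all KO hearts. For Lyve1 (13.9 CPM) it was above KO replicate A (11.8 CPM) and below the other KO hearts. In all 3 groups KO replicate A was the lowest KO heart and WT replicate 6 the lowest WT heart. No test was made of these means, since the genes were chosen with results known.

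The resident markers were then set against the general ones. The counts of the 17 general markers were summed in each heart, 9458 to 11291 in KO and 4806 to 7738 in WT hearts, and used in place of the library size in the same test. A gene that moved in proportion to these markers has a change of 0 on this scale. Most genes of the heart did not rise with the macrophage markers, so the median change over all genes was -0.77, 1.49% of all genes were higher and 66.1% were lower. Of the 4 resident markers 0 were higher and 1, Cbr2, was lower; at an unadjusted p under 0.05 the numbers were 1 and 1, and with DESeq2 0 and 1.

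Lyve1 had 47.7 to 94.3 counts per 1000 general myeloid counts in KO and 41.8 to 85.8 in WT hearts. The ranges overlapped, with 2 of the 5 KO hearts above all WT hearts, and the relative log2 change was 0.21 ± 0.19 (adjusted p = 0.332). Folr2 had 4.53 to 6.06 per 1000 in KO and 4.20 to 7.45 in WT hearts, with a relative change of -0.21 ± 0.20 (adjusted p = 0.366). For neither gene was a change apart from the general markers detectable with these hearts. Timd4 had 1.49 to 2.54 per 1000 in KO and 0.416 to 1.94 in WT hearts, and 3 of the 5 KO hearts were above all WT hearts. Its relative change was 0.69 ± 0.31 (adjusted p = 0.0568); it passed with reads of both strands (0.0420), without KO replicate 14 (0.0443) and without WT replicate E (0.0250). Cbr2 had a relative change of -2.09 ± 0.68 (adjusted p = 0.0109), with 55.4 per 1000 in WT replicate 11 and at most 12.3 in any other heart. Without WT replicate 11 it was -0.81 (adjusted p = 0.109), and with the naming style of the replicates as a covariate it was -1.59 (adjusted p = 0.0687).

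Of the 17 scavenger genes 3 were higher and 4 lower on this scale. Siglec1 had 13 to 27.7 per 1000 in KO and 6.53 to 14.9 in WT hearts, and 4 of the 5 KO hearts were above all WT hearts; the relative change was 1.22 ± 0.23 (adjusted p = 0.000131). F13a1 had 130.5 to 206.0 per 1000 in KO and 89.5 to 145.0 in WT hearts, a relative change of 0.56 ± 0.15 (adjusted p = 0.00253). Pf4 had 29.1 to 37.9 against 20.2 to 32.7 per 1000, a relative change of 0.50 ± 0.15 (adjusted p = 0.00639); it did not pass when the 3 most abundant markers were left out of the sum (0.36, adjusted p = 0.0592).

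The 4 genes that were lower on this scale were Hpgd (-0.87 ± 0.13), Maf (-0.59 ± 0.13), Gas6 (-0.54 ± 0.12) and Dab2 (-0.48 ± 0.14). Their share, 4 of 17, is under the 66.1% of all genes that were lower. None of the 4 passed when scaled by library size, with log2 fold changes between -0.12 (Hpgd) and 0.26 (Dab2). A gene that does not change by library size is lower on this scale, so these values do not measure a loss per macrophage. The part of other heart cells in their levels was not tested. Hpgd had 44.9 to 50.8 per 1000 in KO and 61.8 to 102.2 in WT hearts, and Gas6 had 962.9 to 1194 against 1250 to 1959, both without overlap. The share of all genes without overlap on this scale is not given here. Mrc1 (0.22 ± 0.13), Fcrls (0.04 ± 0.14), Stab1 (-0.09 ± 0.11) and Apoe (-0.10 ± 0.11) did not pass on this scale, and neither did P2ry6, Cd163, Clec10a, Trem2, Ms4a7 and Vsig4.

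**Figure D3:**
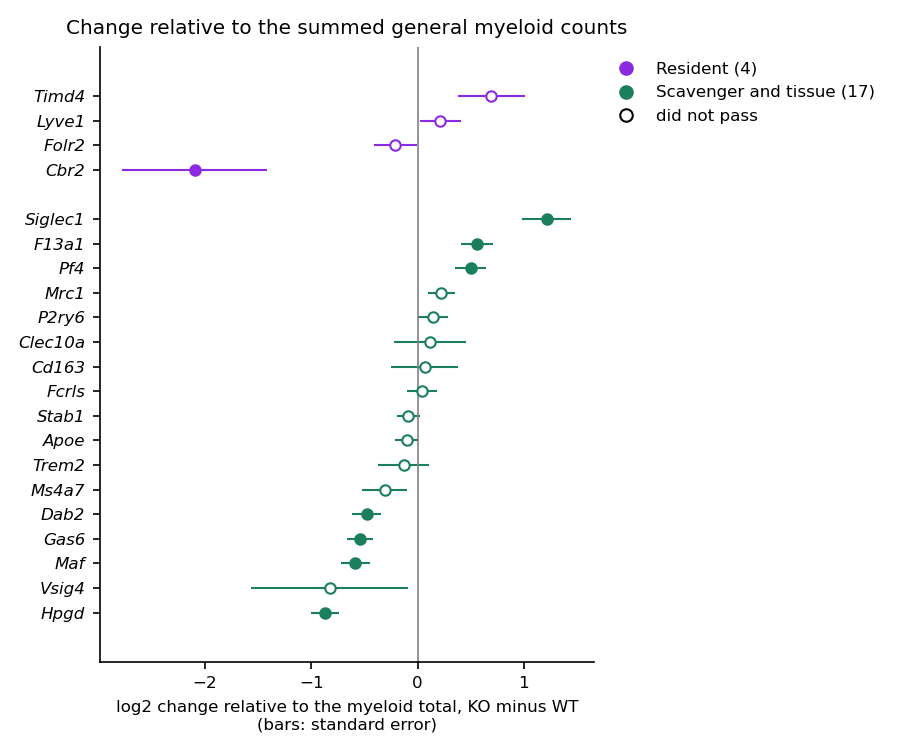
Log2 change relative to the summed counts of the 17 general myeloid markers, KO minus WT (horizontal axis), for the 4 resident and 17 scavenger genes, 1 gene per line; points are edgeR estimates, bars are standard errors, and open points did not pass an adjusted p under 0.05. Siglec1, F13a1 and Pf4 lie to the right of 0 and Lyve1 and Folr2 lie on either side of it by about 1 standard error.

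Other genes of macrophages, listed apart from the 38 but also chosen with earlier results of these data known, moved in the same direction. Of 20 further macrophage genes 15 rose and 0 fell, where 8.93% of all genes tested rose and 5.67% fell. Their median log2 fold change was 0.83. At an unadjusted p under 0.05, 19 were higher and 0 lower, and with DESeq2 18 were higher and 0 lower. The scavenger receptors changed most: Msr1 rose by 2.38 ± 0.22, from 1.72 to 3.81 CPM in WT to 9.94 to 20.98 CPM in KO hearts. Marco, a related receptor, rose by 2.45 ± 0.60 at no more than 1.42 CPM, and the inhibitory receptor Lilrb4a by 1.58 ± 0.34. Of the 14 genes tested for Fc receptor and ITAM signalling, 6 rose and 0 fell, with 1 lower at an unadjusted p under 0.05 and 1 lower with DESeq2. The inhibitory IgG receptor Fcgr2b rose by 1.77 ± 0.26, Fcgr4, an activating one, by 1.63 ± 0.27, and the kinase Btk by 1.22 ± 0.28.

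Of the 13 growth factors and transcription factors tested, 4 rose and 0 fell, where 8.93% of all genes tested rose and 5.67% fell. At an unadjusted p under 0.05 1 was lower, and with DESeq2 0 were lower. The median log2 fold change was 0.10. Csf1, the ligand of Csf1r, had 31.8, 34.9, 52.5, 43.4 and 42.3 CPM in KO replicates A, B, 14, D and 15 and 16.6 to 31.5 CPM in WT hearts. All KO hearts were above all WT hearts, with a log2 fold change of 0.82 ± 0.18 (adjusted p = 0.0103). Csf2rb, the shared receptor chain for GM-CSF, IL-3 and IL-5, rose by 1.90 ± 0.19 (adjusted p = 3.71e-05), from 1.70 to 2.98 CPM in WT to 5.66 to 12.2 CPM in KO hearts. The transcription factor gene Cebpb rose by 0.63 ± 0.17 (adjusted p = 0.0285), and its genotypes overlapped.

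Markers of neighbouring blood cells did not all move alike. For these and the following lists, 8.93% of all genes tested rose and 5.67% fell. A count of 1 in such a short list is therefore not read as a change of a cell type. Of the 12 neutrophil genes 9 rose and 0 fell (11 higher and 0 lower at an unadjusted p under 0.05, 10 higher and 0 lower with DESeq2), with the protease gene Elane at 3.18 ± 0.54, S100a9 at 2.97 ± 0.48 and Ngp at 2.87 ± 0.60. The summed level was 25.9 to 71.8 CPM in KO and 1.96 to 11.1 CPM in WT hearts. Lyz2, Itgam, Fcgr3 and Fcer1g are also carried by neutrophils, and the part of these cells in their changes was not tested. Of the 7 monocyte genes tested 1 rose, F10 by 1.02 ± 0.14, and 1 fell. The gene that fell was Ccr2, the chemokine receptor of blood monocytes, with 1.51, 1.11, 1.04, 1.44 and 1.43 CPM in KO hearts and 1.65 to 5.89 CPM in WT hearts, a log2 fold change of -1.51 ± 0.27 (adjusted p = 0.00377). All KO hearts were below all WT hearts for Ccr2, opposite to the macrophage markers.

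Of the 7 mast cell and basophil genes tested 1 fell, the protease gene Cpa3, with a log2 fold change of -1.73 ± 0.35, and 0 rose; at an unadjusted p under 0.05 4 were lower and 0 higher, and with DESeq2 3 were lower and 0 higher. Fcer1g is part of the IgE receptor of mast cells too, and it rose. Of the 9 genes tested for MHC class II and dendritic cells 0 rose and 0 fell, also at an unadjusted p under 0.05 and with DESeq2, which gave 5 of the genes no adjusted p. WT replicate 7 had a sum of 91.97 CPM for them and the other WT hearts 7.87 to 10.96 CPM, against 10.5 to 30.3 CPM in KO hearts. Of the 12 lymphoid genes tested 0 rose and 0 fell, with 7 lower and 0 higher at an unadjusted p under 0.05 and 0 in either direction with DESeq2, which gave 10 of them no adjusted p. Of the 7 microglia genes Sall1 rose by 0.36 ± 0.10 and Siglech fell, with a log2 fold change of -1.43 ± 0.42, with no more than 0.240 CPM of Siglech in any heart; with DESeq2 0 of these genes were lower, and 1 had no adjusted p.

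For lists outside the myeloid cells, the number lower in the platelet, lymphatic, endothelial and erythroid lists was 0 at an unadjusted p under 0.05 and with DESeq2 too. The counts below stand beside 8.93% of all genes tested that rose and 5.67% that fell. Of the 12 erythroid genes 11 rose and 0 fell, led by Hemgn at 4.94, Rhag at 4.40 and Klf1 at 4.10 on the log2 scale; KO replicate A had the lowest KO sum, 753.1 CPM, and the others 1110 to 1407 CPM. Of the 4 liver sinusoid genes 2 rose, Oit3 by 1.88 ± 0.16 and the Kupffer cell lectin Clec4f by 1.31 ± 0.36. Of the 9 hepatocyte genes 1 rose, transferrin (Trf), by 0.73 ± 0.18. Of the 8 fibroblast genes 3 rose, Postn by 0.42 ± 0.08, Tcf21 by 0.30 ± 0.07 and Pdgfra by 0.27 ± 0.06. Of the 12 cardiomyocyte genes 1 rose, Nppa by 0.87 ± 0.19, and 2 fell, Ttn by 0.51 and Tnni1 by 0.41 on the log2 scale; 5 were lower at an unadjusted p under 0.05 and 5 with DESeq2.

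**Figure D4:**
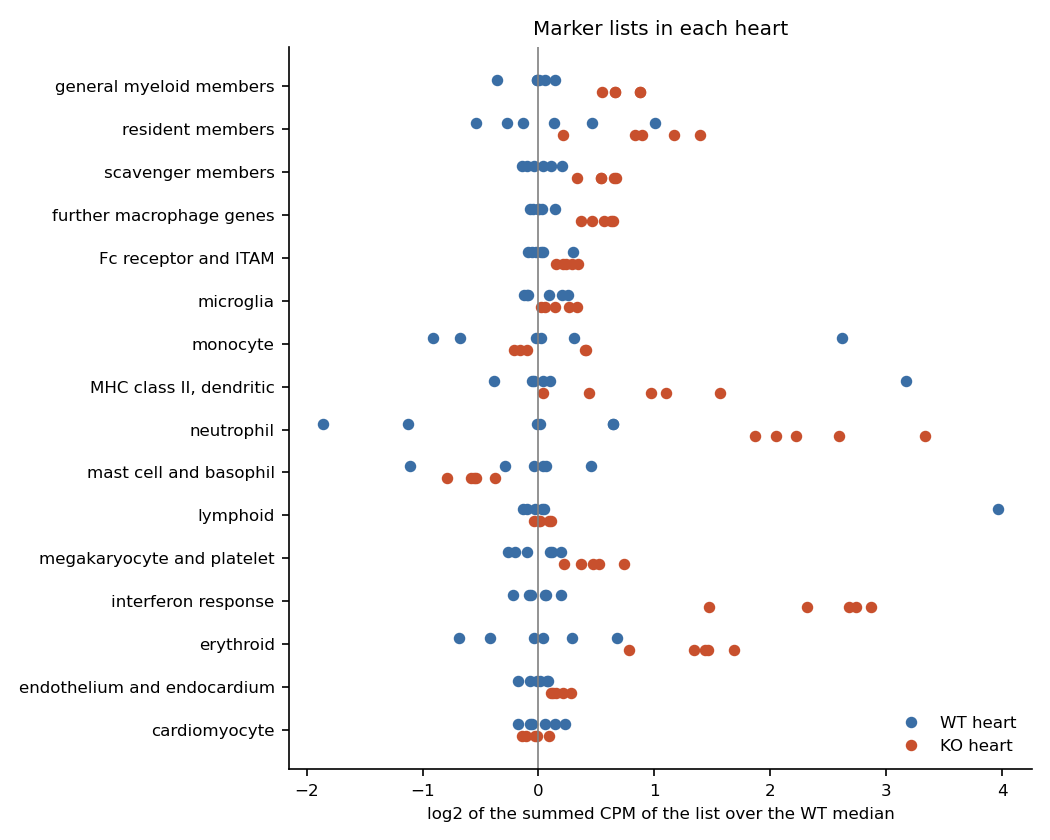
Log2 of the summed CPM of each marker list over the median of the WT hearts (horizontal axis), 1 point per heart, for 16 lists (1 list per line); blue points are the 6 WT hearts and red points the 5 KO hearts. All 5 KO hearts lie to the right of all WT hearts for the general and scavenger genes, the further macrophage, neutrophil, platelet, interferon, erythroid and endothelial lists, and WT replicate 7 is the far point of the lymphoid, MHC class II and monocyte lists.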

How the data were processed

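RNA of 5 Pde2A-/- and 6 Pde2A+/+ embryonic hearts, 1 heart per library, was sequenced from stranded poly(A) libraries (single-end). The authors mapped the reads with STAR to GRCm38 (mm10) and deposited raw counts per gene; the STAR version and annotation release are not given in the sources used here. The sense counts (column 4 of each file) were used, without the lines of uncounted reads. Genes were named from GENCODE M21. The 24177 genes that reached 10 counts in sum entered the comparison of the genotypes with edgeR 4.0.16 in R 4.3.3 (TMM, quasi-likelihood test, Benjamini-Hochberg over all genes, threshold 0.05); SE is the log2 fold change divided by the root of F. CPM are TMM-scaled; log2 levels were computed with a prior count of 2. The second test replaced the library size by the summed counts of the 17 general markers. The fits were tested on simulated data: in a set of 23743 genes, 196 of 200 with a true log2 change of 1 were recovered, with 8 wrong calls. The changed genes were drawn above a minimum mean count, and every gene was given the same spread between hearts. The recovery therefore does not describe rare genes or genes with a wide spread.

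The 38 genes and all lists were chosen with earlier results of these data known, so no test over a list was made. Of each other list, at most the 3 genes with the largest change among those that passed are named; genes singled out otherwise are marked so. The single result of 1 listed gene is not reported here. Between 35865537 and 42835382 sense counts per heart were deposited, and precision was limited by the spread between hearts (biological coefficient of variation 16.8%). No source names litters or batches, so p-values measure the spread between these hearts, and sex per heart was not used. Alternatives were DESeq2 1.42.0, its size factors, other filters, both strands (column 2), erythroid genes left out, the naming style (letter or number) as a covariate, other thresholds, other myeloid totals and each heart left out. Tables were made with Python, pandas and matplotlib.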

Additional observations from a re-analysis of the deposited data

Results flagged for a closer look

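Each of 84 sets of values (the CPM of the 38 genes and the mean levels of their groups, in KO and in WT hearts) was searched for a heart whose gap to its neighbour exceeded the 95% limit of Dixon's ratio, and 5 were found; chance gives about 1 in 20. Ptprc stood out in WT replicate 7 at 16.6 CPM, with 3.53 to 4.62 CPM in the other WT hearts. Cbr2 stood out in WT replicate 11 at 9.40 CPM, with 0.261 to 2.06 CPM in the others. Vsig4 stood out in WT replicate 8 at 0.784 CPM, with 0.0249 to 0.104 CPM in the others. Cd68 stood out in WT replicate E at 4.44 CPM, with 2.77 to 3.26 CPM in the others. Fcgr1 stood out at the low end in KO replicate A at 5.12 CPM, with 7.36 to 8.26 CPM in the other KO hearts.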

How the results depend on the processing

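The number of the 38 genes that rose was 24 to 29 when single hearts were left out and 26 to 28 under the other planned fits, with 0 lower in each; it was 7 with a fold change of at least 2 added (3 general, 1 resident and 3 scavenger genes). With an adjusted p under 0.01 the resident count was 0. Without the 4 hearts with hepatocyte transcripts 17 rose (10 general, 0 resident), and without WT replicate 7 as well 10 rose (8 general, 0 resident, 2 scavenger); these fits have fewer hearts. Leaving out each heart gave 15 to 16 general, 1 to 3 resident and 8 to 10 scavenger genes. Relative to the myeloid total, the resident count was 1 higher with reads of both strands and 0 to 1 higher and 0 to 1 lower without each heart, and it was 0 lower with the naming covariate.

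Over all genes, 2160 were higher and 1372 lower. DESeq2 gave 2354 lower, a fold change of at least 2 gave 535 and 90, an adjusted p under 0.01 gave 889 and 142, and leaving out each heart gave 1288 to 2887 higher and 414 to 2165 lower. Without the 4 hearts with hepatocyte transcripts the numbers were 482 and 50, and without WT replicate 7 as well 353 and 29.

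These changes turned sign with no call: Vsig4 to 0.017 with the naming covariate, and Cbr2 from -1.35 to 0.88 without the 5 hearts above; without single hearts Vsig4 lay between -0.46 and 1.58. Relative to the myeloid total, with the geometric mean of the markers Cd163 was -0.066, Clec10a -0.010 and Fcrls -0.091, without the 3 most abundant markers they were -0.085, -0.0065 and -0.11, and Cd163 was -0.021 with both strands. Without single hearts these changes lay between -0.071 and 0.30 for Cd163, -0.017 and 0.13 for Fcrls, -0.0035 and 0.31 for Clec10a, and -1.11 and 0.83 for Vsig4. The causes of these differences, named or not, were not tested. No paired analysis was possible because the replicate names of KO and WT hearts share no number. Timd4, Cd163, Clec10a and Vsig4 had at most 30 counts in any heart.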
